A study of Mus musculus with 6 samples.

Results

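Non-collagen matrix glycoproteins and proteoglycans are the secreted proteins that, beside collagen, build the extracellular matrix. They were represented by a list of 42 genes, each matched by its symbol to 1 locus of a table of 51499 assembled loci. The rule that picks the loci uses gene names and no measured value. It holds 16 elastic fibre and microfibril genes, 11 adhesive and matricellular glycoproteins, 3 basement membrane genes, 8 proteoglycans and 4 lysyl oxidases. No member locus was merged with another gene name, and 3 of them (Loxl2, Ecm1 and Spp1) also list a non-coding Ensembl identifier, whose fragments cannot be told apart from those of the gene.

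Poly(A) RNA was sequenced from mouse embryonic fibroblasts (MEFs), connective tissue cells taken from embryos and grown in culture. WT cells carry the floxed gene (Yme1l fl/fl) and Yme1l-/- cells are clones genotyped as knockout after Cre recombinase. Both genotypes were immortalized with SV40, and per the study both were grown from clones that had been exposed to Cre. Each genotype had 3 cultures, and how many clones they stand for is not given in the sources used here, so genotype and clone cannot be told apart and p-values measure the spread between these cultures. Yme1l1 encodes a protease of the mitochondrial inner membrane, and the comparison asks what its loss does to the transcriptome.

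In connective tissue, fibrillins assemble into microfibrils, on which fibulins and other adaptors help to lay down elastin, and latent TGF-β binding proteins (LTBPs) anchor the growth factor complex there. Fibronectin forms a scaffold that cells build through integrins, while matricellular proteins such as tenascin-C, thrombospondins and SPARC modulate adhesion more than they bear load. Nidogens and perlecan join laminin and collagen networks in basement membranes, small leucine-rich proteoglycans such as decorin and biglycan bind collagen fibrils, and lysyl oxidases crosslink collagen and elastin.

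The libraries held 33180867 to 49351107 counted fragments, with scaling factors of 0.973 to 1.04. Yme1l1 measured 191, 192 and 183 CPM (counts per 1e6 fragments of the scaled library) in WT and 37.9, 38.9 and 40.6 CPM in Yme1l-/-, a log2 fold change of -2.27 ± 0.05 (SE). The labelled cell type was checked on 9 fibroblast markers. The 8 that could be read singly summed to 6075 to 6297 CPM in WT and 4289 to 4515 CPM in Yme1l-/- libraries, with Thy1 and Fap at or near 0 in both. Of these Col1a1 was called higher (1615 ± 95.3 against 2176 ± 112 CPM, SD, n = 3), Col1a2, Col3a1, Vim (2604 ± 115 against 1039 ± 39.9 CPM) and Pdgfrb were called lower, and Pdgfra was not called. Of other cell types, 5 smooth muscle markers summed to 487 to 553 CPM in WT and 955 to 1201 CPM in Yme1l-/- (mostly Acta2 and Tagln), 5 chondrocyte markers to 37.8 to 44.3 against 2.29 to 3.05 CPM (in WT mostly Acan and Sox9, with Col9a1 at 0 and Matn1 near 0, while Col2a1 was called higher, 0.832 ± 0.113 against 1.44 ± 0.114 CPM), and 6 epithelial markers to 33.1 to 35.1 against 0.373 to 0.686 CPM (in WT mostly Krt18). The 5 endothelial markers summed to 0.888 to 1.43 CPM in WT and 1.67 to 2 CPM in Yme1l-/-, and Kdr was called higher. The 5 leukocyte markers summed to 1.86 to 2.08 against 4.03 to 4.71 CPM, and Cd68 was called higher. Tie1 and Adgre1 were at 0. The part of these shifts in the results was not tested, and in bulk RNA fewer cells of a type and less RNA per cell cannot be told apart.

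WT replicate 2 stood apart for matrix genes. It read at least 1.5 times each of the other WT libraries for 6 of 38 tested members (Dcn, Fbn2, Mfap5, Ogn, Tgfbi and Thbs2), against 2.24% of all 13867 loci tested, whereas WT replicates 1 and 3 did so for 0 members. Values of these genes are given with and without that library.

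Most measured members were lower in Yme1l-/- cells. Of the 38 members with enough counts to be tested, 23 were called lower, 13 were called higher and 2 were not called (edgeR's quasi-likelihood test, adjusted p under 0.05 over all loci). In the same test 67.7% of all loci were called, 34.1% lower and 33.6% higher, so that being called was common among all loci. Of the tested members 3 (Mfap2, Mfap5 and Prelp) passed the count filter through 1 genotype alone, so that these had to differ. A change of at least 2-fold was called downward for 15 members, against 8.63% of all loci, and upward for 4 (Nid2, Prelp, Ogn and Fmod), against 9.1% of all loci. The median member log2 fold change was -0.70, beside -0.0041 for all loci tested. For 23 members the highest Yme1l-/- library was under the lowest WT library, and for 13 the lowest Yme1l-/- library was over the highest WT library. Over all loci the same held for 36% and 35.9%. Only Nid1 and Hspg2 overlapped between the genotypes among the tested members. The 42 genes together took 1.71% ± 0.0685 of a library in WT and 1.11% ± 0.0401 in Yme1l-/- (SD, n = 3). The single libraries read 1.66%, 1.67% and 1.79% in WT against 1.08%, 1.15% and 1.10% in Yme1l-/-, with no overlap. Most of that difference lay in Fn1, Fbln2 and Bgn, which together took 0.99% ± 0.0394 in WT and 0.484% ± 0.0234 in Yme1l-/-, while the other 39 genes took 0.717% ± 0.0324 and 0.625% ± 0.0169.

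**Figure D1:**
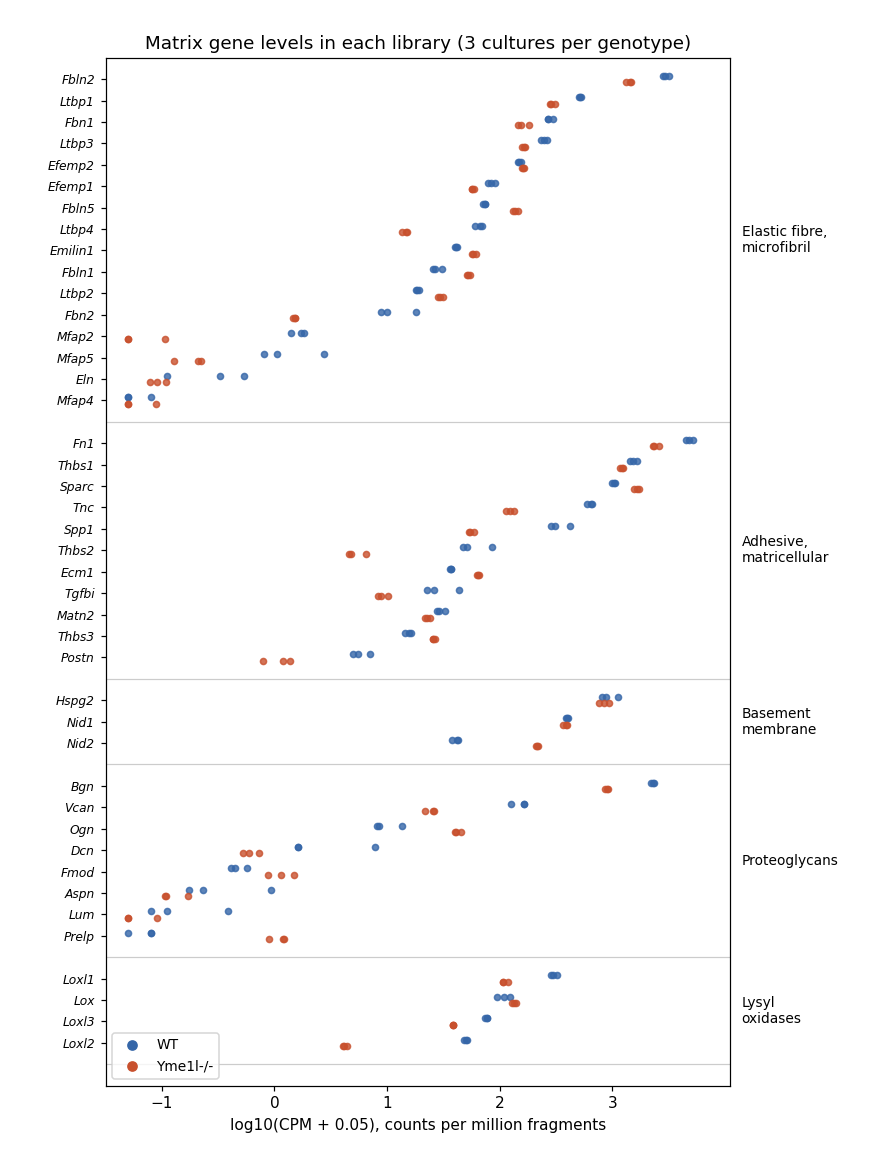
Level of each of the 42 matrix genes in each library, as log10 of CPM plus 0.05, with WT in blue and Yme1l-/- in orange-red and genes grouped by role. Among the tested genes, the points of the genotypes interleave only for Nid1 and Hspg2, and WT replicate 2 is the separate blue point at the right for Dcn, Mfap5, Fbn2, Thbs2 and Tgfbi.

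Promoter sequences were read for 28 of the 42 members from RefSeq's table for GRCm38.p6, as the 250 bases before the annotated start. The rest were not read, among them Fbn2 (called lower) and Lox (called higher). The motif counts below do not cover them. Those of 6 members that were called are printed, 4 that were lower in Yme1l-/- (Tnc, Vcan, Bgn and Postn) and 2 that were higher (Ecm1 and Ogn), to let genes that moved opposite ways be set side by side. Capitals mark matches, on either strand, to the TATA box letters TATAAA, to the CCAAT box, to the GC box letters GGGCGG, to TGANTCA of AP-1 sites, to the E-box letters CACGTG or to GGAATG of TEAD sites, and adjoining or overlapping matches run together.
Tnc (chr4:64047016-64047265, minus strand): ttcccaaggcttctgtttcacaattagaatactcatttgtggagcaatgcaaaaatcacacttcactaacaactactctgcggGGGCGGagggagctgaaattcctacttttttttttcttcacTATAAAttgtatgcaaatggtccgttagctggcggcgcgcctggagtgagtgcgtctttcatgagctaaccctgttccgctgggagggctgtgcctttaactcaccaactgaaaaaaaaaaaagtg
Vcan (chr13:89742513-89742762, minus strand): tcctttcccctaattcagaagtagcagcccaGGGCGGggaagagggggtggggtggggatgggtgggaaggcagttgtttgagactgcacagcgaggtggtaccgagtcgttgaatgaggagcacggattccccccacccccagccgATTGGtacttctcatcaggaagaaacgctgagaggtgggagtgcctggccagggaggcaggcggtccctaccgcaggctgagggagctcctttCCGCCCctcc
Bgn (chrX:73483351-73483600, plus strand): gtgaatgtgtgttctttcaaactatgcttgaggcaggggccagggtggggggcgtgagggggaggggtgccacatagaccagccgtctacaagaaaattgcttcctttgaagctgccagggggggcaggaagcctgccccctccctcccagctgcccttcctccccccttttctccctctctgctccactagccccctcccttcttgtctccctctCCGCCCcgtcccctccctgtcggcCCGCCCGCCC
Postn (chr3:54360857-54361106, plus strand): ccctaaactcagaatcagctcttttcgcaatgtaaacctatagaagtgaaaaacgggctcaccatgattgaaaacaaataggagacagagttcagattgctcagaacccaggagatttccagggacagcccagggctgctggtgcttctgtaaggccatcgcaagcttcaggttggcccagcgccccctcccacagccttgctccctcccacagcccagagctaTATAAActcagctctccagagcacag
Ecm1 (chr3:95739570-95739819, minus strand): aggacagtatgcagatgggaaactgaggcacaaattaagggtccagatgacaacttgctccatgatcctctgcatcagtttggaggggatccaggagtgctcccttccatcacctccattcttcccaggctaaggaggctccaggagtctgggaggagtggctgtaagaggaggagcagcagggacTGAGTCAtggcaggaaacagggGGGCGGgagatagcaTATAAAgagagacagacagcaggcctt
Ogn (chr13:49607765-49608014, plus strand): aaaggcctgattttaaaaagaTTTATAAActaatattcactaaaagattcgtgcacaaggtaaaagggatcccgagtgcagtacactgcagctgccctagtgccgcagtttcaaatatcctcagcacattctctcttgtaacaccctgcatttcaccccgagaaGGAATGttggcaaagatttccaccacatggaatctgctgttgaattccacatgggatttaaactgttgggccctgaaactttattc
TATAAA was found in 7 of 28 member promoters and in 12.4% of the 32851 promoters searched. In Postn and Ecm1, which moved in opposite directions, it lay 26 and 27 bases before the start. In the other 5 (Tnc, Thbs2, Spp1, Ogn and Aspn) it lay over 100 bases before the start, at 126 bases in Tnc and Thbs2 and 211 in Spp1. GGGCGG was found in 15 member promoters (32.7% of all), CCAAT in 11 (33.8%), GGAATG in 3 (12.6%), TGANTCA in 2 (6.75%) and CACGTG in 1 (6.02%). Among promoters of members called lower, 4 of 14 held TATAAA and 8 of 14 GGGCGG. Among those called higher the counts were 2 and 5 of 11. The median GC content was 56.2% in member promoters and 52.4% in all promoters. These matches describe the letters in the window and no binding was measured.

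The structural core of the microfibrils was lower in Yme1l-/- cells. Fbn1 (chr2:125300594-125507993, GRCm38, as for all gene coordinates here), which encodes fibrillin-1, read 269.7, 268 and 297 CPM in WT and 146, 181 and 154 CPM in Yme1l-/-. The genotypes did not overlap, and the log2 fold change was -0.79 ± 0.08 (adjusted p = 9.1e-06). Fbn2 on chromosome 18, the fibrillin of developing tissue, read 8.76, 18.2 and 9.98 CPM in WT against 1.46, 1.49 and 1.41 CPM. Its log2 fold change was -3.08 ± 0.30 (adjusted p = 5.32e-05) and -2.69 without WT replicate 2, the highest library. Fbn2 had 4.46 ± 2.01 fragments per 100 Fbn1 fragments in WT and 0.912 ± 0.088 in Yme1l-/- (SD, n = 3).

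The microfibril-associated glycoproteins were scarce in these cells. Mfap2 (MAGP-1, chr4:141010418-141015984) had 55, 58 and 44 counts in WT and 2, 0 and 0 in Yme1l-/-, and, like Mfap5, passed the count filter through WT alone. Taking 3 counts as the floor of a library, it was at least 18.6-fold lower. Mfap5 (MAGP-2) had 25, 88 and 33 counts against 6, 8 and 4, with a fitted log2 fold change of -3.45 ± 0.59 (-2.71 without WT replicate 2). Mfap4 had at most 2 counts in any library and was not tested. Elastin itself, encoded by Eln, was hardly transcribed, with 2, 16 and 9 counts in WT and 1, 2 and 3 in Yme1l-/-, and was not tested either. The elastin-associated genes below were measured in cells whose elastin transcript lay near the detection floor.

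The fibulins split. Fbln2 (chr6:91212455-91272540), which binds fibronectin and microfibrils, read 3192, 2850.0 and 2960.4 CPM in WT and 1449.8, 1460.0 and 1324 CPM in Yme1l-/-. Each Yme1l-/- library lay well under each WT library, and the log2 fold change was -1.09 ± 0.06 (adjusted p = 4.22e-08). Fbln5 (chr12:101746565-101819055), needed for elastic fibre assembly, went the other way, from 74.7, 71.6 and 74.4 CPM to 146, 136 and 133 CPM, by 0.91 ± 0.05 (adjusted p = 3.3e-08). Per 100 Fbln2 fragments there were 2.46 ± 0.0993 Fbln5 fragments in WT and 9.80 ± 0.401 in Yme1l-/-. Fbln1 was also higher, with a mean of 27.6 ± 2.50 against 52.8 ± 1.65 CPM (SD, n = 3, as for all means below) and a log2 fold change of 0.94 ± 0.07. Efemp1 (fibulin-3) was lower, 84.7 ± 6.48 against 57.3 ± 1.20 CPM (-0.56 ± 0.06). For Efemp2 (fibulin-4), 154, 145 and 148 CPM in WT stood against 160.3, 159.5 and 165 CPM. Its log2 fold change of 0.12 ± 0.04 was called at an adjusted p of 0.0288, and the call was lost in 6 of 13 alternative settings.

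Among the latent TGF-β binding proteins 3 were lower and 1 was higher, beside 34.1% and 33.6% of all loci. Ltbp4 (chr7:27305136-27337692), which also guides elastin assembly, showed the largest change, from 69.6, 60.6 and 66.4 CPM to 13.6, 14.9 and 14.8 CPM. That is a log2 fold change of -2.18 ± 0.07 (adjusted p = 3.02e-10). Ltbp1 read 515, 509 and 529 CPM in WT and 278, 308 and 286 CPM in Yme1l-/- (-0.83 ± 0.05), and Ltbp3 read 249, 234 and 262 against 159, 163 and 169 CPM (-0.60 ± 0.05). In all 3 genes the genotypes were apart. Ltbp2, which unlike its relatives does not hold latent TGF-β, rose from a mean of 18.6 ± 0.601 to 29.7 ± 1.44 CPM (0.68 ± 0.06). Emilin1, found where elastin meets the microfibrils, rose from 41.1 ± 0.893 to 59.0 ± 2.19 CPM (0.52 ± 0.05). Of the 14 tested genes of this role 9 were lower and 5 higher, beside 34.1% and 33.6% of all loci, with a median of -0.70, and 5 fell at least 2-fold against 0 that rose as far (8.63% and 9.1% of all loci). Of the 5 that fell at least 2-fold, Mfap2 and Mfap5 passed the count filter through WT alone, so that these had to differ.

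**Figure D2:**
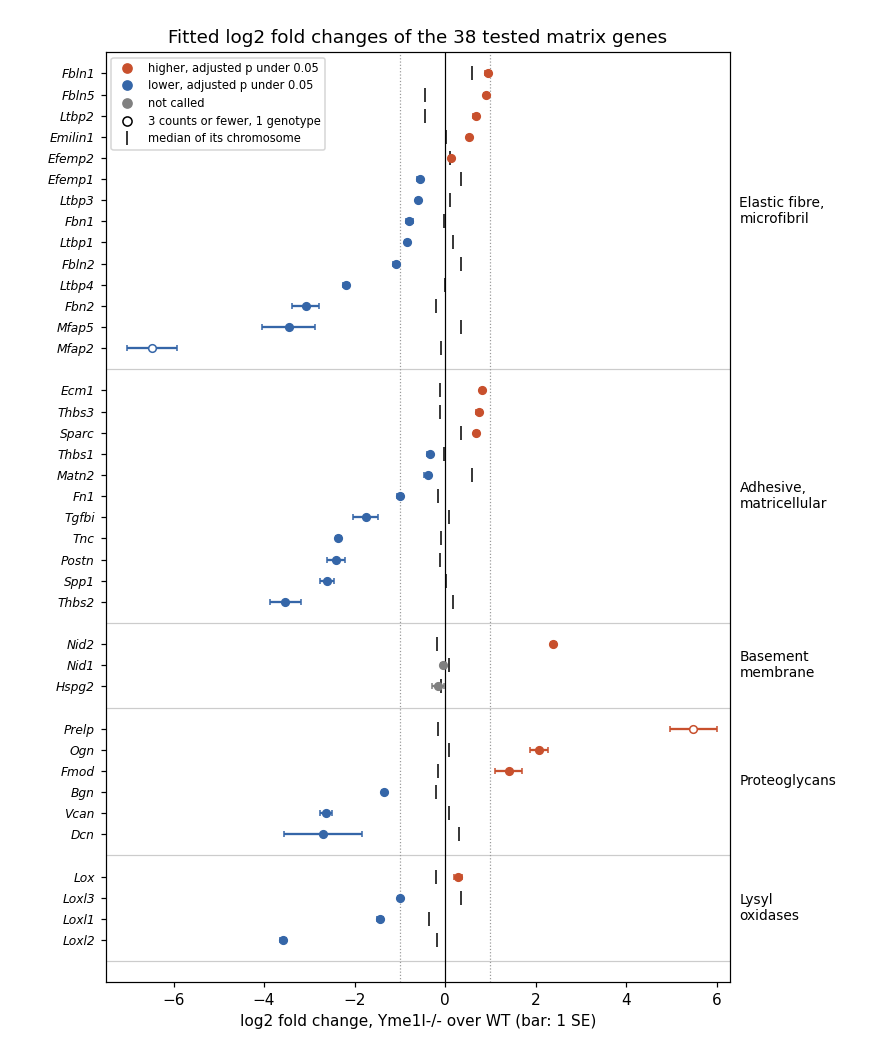
Fitted log2 fold change of Yme1l-/- over WT for the 38 tested matrix genes, with bars of 1 SE, vertical ticks at the median of all tested loci of the gene's chromosome and dotted lines at 2-fold. Open circles mark Mfap2 and Prelp, which had 3 counts or fewer in each library of 1 genotype, so that their fitted value is no bound.

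Fibronectin, the scaffold on which much of the matrix assembles, was lower. Fn1 (chr1:71585520-71653200) read 4536, 4815 and 5207 CPM in WT and 2314, 2615 and 2354 CPM in Yme1l-/-. The log2 fold change was -0.999 ± 0.07 (adjusted p = 1.79e-07), just under 1 in size, so Fn1 is not among the genes counted as 2-fold lower. Tnc (chr4:63959785-64047015), which encodes tenascin-C and whose promoter is printed above, fell from 600.1, 646 and 657 CPM to 124, 133 and 114 CPM, by 2.36 ± 0.06 on the log2 scale (adjusted p = 1.23e-10). Its Yme1l-/- libraries held 19.5% of the WT mean.

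Of the thrombospondins, which bind many matrix and cell surface partners, Thbs1 and Thbs2 were lower and Thbs3 was higher. Thbs1 read 1434, 1540.5 and 1662 CPM in WT and 1181, 1254 and 1226 CPM in Yme1l-/-, a modest log2 change of -0.34 ± 0.06 (adjusted p = 0.000414). Thbs2 (chr17:14665500-14694235) read 47.0, 84.8 and 51.6 CPM against 4.51, 4.72 and 6.51 CPM. The log2 fold change of Thbs2 was -3.53 ± 0.33 (adjusted p = 0.000521) and -3.22 without WT replicate 2, so its direction did not rest on the high WT library. Thbs3 was higher, 15.4 ± 0.967 against 25.9 ± 0.832 CPM (0.75 ± 0.07). For every 100 Thbs1 fragments, Thbs2 went from 3.96 ± 1.34 to 0.430 ± 0.0877 and Thbs3 from 0.996 ± 0.0574 to 2.12 ± 0.0859.

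Among the remaining matricellular glycoproteins, Spp1 was lower and Sparc higher. Spp1 (osteopontin, chr5:104435118-104441050) read 287, 418 and 313 CPM in WT and 53.4, 54.0 and 58.7 CPM in Yme1l-/- (-2.61 ± 0.16, adjusted p = 1.96e-05). Sparc (osteonectin, chr11:55394500-55423183), a collagen-binding protein, read 1056, 1036 and 997 CPM against 1728, 1675 and 1558 CPM (0.68 ± 0.05, adjusted p = 7.48e-07). Tgfbi, an integrin-binding protein induced by TGF-β, read 22.7, 43.1 and 26.0 CPM in WT and 8.25, 8.70 and 10.1 CPM in Yme1l-/-. The log2 fold change of Tgfbi was -1.76 ± 0.28 (adjusted p = 0.00291) and -1.43 without WT replicate 2. Periostin, a partner of tenascin-C encoded by Postn, was scarce and lower, 5.81 ± 1.08 against 1.07 ± 0.294 CPM (-2.41 ± 0.21). Ecm1 rose from 36.7 ± 0.503 to 64.3 ± 1.28 CPM (0.81 ± 0.05), and Matn2, which encodes the filament-forming matrilin-2, fell from 29.8 ± 2.79 to 22.9 ± 1.26 CPM (-0.38 ± 0.08). All 11 genes of this role were tested and called, 8 lower and 3 higher, with a median log2 fold change of -0.999, and 5 of the 8 fell at least 2-fold, where over all loci 67.7% were called, 34.1% lower and 8.63% at least 2-fold lower.

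Of the 3 basement membrane genes, Nid2 rose, and its paralog Nid1 and Hspg2 were not called. Over all loci 67.7% were called and 9.1% were called at least 2-fold higher. Nid2 (chr14:19751265-19811787) read 42, 37.4 and 42.9 CPM in WT and 209, 218 and 215 CPM in Yme1l-/-. The genotypes were far apart, at a log2 fold change of 2.39 ± 0.06 (adjusted p = 6.78e-11). Nid1 read 389, 395 and 406 CPM against 386, 399 and 364 CPM, and the genotypes overlapped (-0.05 ± 0.05, adjusted p = 0.345). Nid2 therefore went from 10.3 ± 0.718 to 55.9 ± 2.61 fragments per 100 Nid1 fragments. Hspg2, which encodes perlecan, read 880.5, 814 and 1134 CPM in WT and 757, 928 and 841 CPM in Yme1l-/- (-0.16 ± 0.13, adjusted p = 0.308), again with overlap.

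The proteoglycans changed in both directions, 3 of the 6 tested lower and 3 higher, all at least 2-fold, where over all loci 8.63% were called at least 2-fold lower and 9.1% at least 2-fold higher. Of the 3 higher, Prelp passed the count filter through Yme1l-/- alone, so that it had to differ. Vcan (chr13:89655312-89742509), the hyaluronan-binding versican, fell from 125, 165 and 166 CPM to 21.7, 25.8 and 26.2 CPM. Its log2 fold change was -2.63 ± 0.13 (adjusted p = 9.92e-07). Bgn (biglycan, chrX:73483602-73495933) read 2288, 2207 and 2346 CPM in WT against 862, 926 and 899 CPM, with no overlap and a log2 fold change of -1.35 ± 0.05 (adjusted p = 2.11e-09). Ogn (osteoglycin, chr13:49608046-49624501) rose instead, from 8.12, 13.6 and 8.36 CPM to 40.6, 40.2 and 45.7 CPM. The log2 fold change of Ogn was 2.07 ± 0.20 (adjusted p = 9.95e-05) and 2.35 without WT replicate 2. Per 100 Bgn fragments there were 0.442 ± 0.150 Ogn fragments in WT and 4.71 ± 0.367 in Yme1l-/-.

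The other small leucine-rich proteoglycans were rare. Dcn (decorin) had 52, 257 and 51 counts in WT and 24, 24 and 28 in Yme1l-/-. Its log2 fold change was -2.70 ± 0.87 (adjusted p = 0.0422) with WT replicate 2 and -1.47 (adjusted p = 0.000637) without that library, and the call was lost in 5 of 13 alternative settings. Fmod (fibromodulin) had 12, 13 and 17 counts against 29, 55 and 73 (1.40 ± 0.29, adjusted p = 0.0012). Prelp, a relative with a heparin-binding end, had 0, 1 and 1 counts in WT and 40, 43 and 59 in Yme1l-/-. It passed the filter through Yme1l-/- alone and was at least 11.4-fold higher. Lum (lumican), with 2, 11 and 1 counts against 0, 2 and 0, and Aspn (asporin), with 6, 29 and 4 against 2, 6 and 3, were not tested. WT replicate 2 was the highest WT library for both.

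Some members lie close together on a chromosome. Prelp and Fmod, 115.8 kb apart on chromosome 1, both rose. Ogn rose, while its neighbour Aspn, 40.5 kb away on chromosome 13, stayed too low to be tested. Omd, a relative outside the list that lies between them (chr13:49582462-49592822), had 14, 40 and 31 counts in WT and 6, 23 and 27 in Yme1l-/-, and was called lower with overlap between the genotypes (-1.10 ± 0.44, adjusted p = 0.0443), a call lost in 5 of 12 alternative settings. Dcn and Lum lie 47.0 kb apart on chromosome 10, and both were highest in WT replicate 2. Efemp2 and Ltbp3, 258 kb apart on chromosome 19, were called in opposite directions.

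Of the 4 lysyl oxidases 3 were called lower and 1 higher, beside 34.1% and 33.6% of all loci, and 2 fell at least 2-fold (8.63% of all loci). Loxl2 (chr14:69609068-69695834), which crosslinks basement membrane collagen, read 50.6, 50.8 and 48.4 CPM in WT and 4.06, 4.38 and 4.04 CPM in Yme1l-/-. Its log2 fold change of -3.58 ± 0.07 had the smallest adjusted p of all members, 9.65e-12. Loxl1 (chr9:58287738-58313186), tied to elastic fibre upkeep, read 322, 283 and 300.0 CPM against 119, 108 and 106 CPM (-1.44 ± 0.06, adjusted p = 4.01e-09). Loxl3 fell from a mean of 76.3 ± 2.28 to 38.3 ± 0.149 CPM (-0.996 ± 0.05), just short of 2-fold. Lox on chromosome 18, the founding member, read 109, 124 and 94.7 CPM in WT and 139.7, 128 and 133 CPM in Yme1l-/-, close to one another without overlap. Its rise of 0.29 ± 0.09 (adjusted p = 0.0146) was no longer called without Yme1l-/- replicate 1 (adjusted p = 0.0959). For each 100 Lox fragments there were 46.1 ± 5.11 Loxl2 fragments in WT and 3.12 ± 0.273 in Yme1l-/-, and 280.1 ± 46.5 against 83.2 ± 3.11 Loxl1 fragments.

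**Figure D3:**
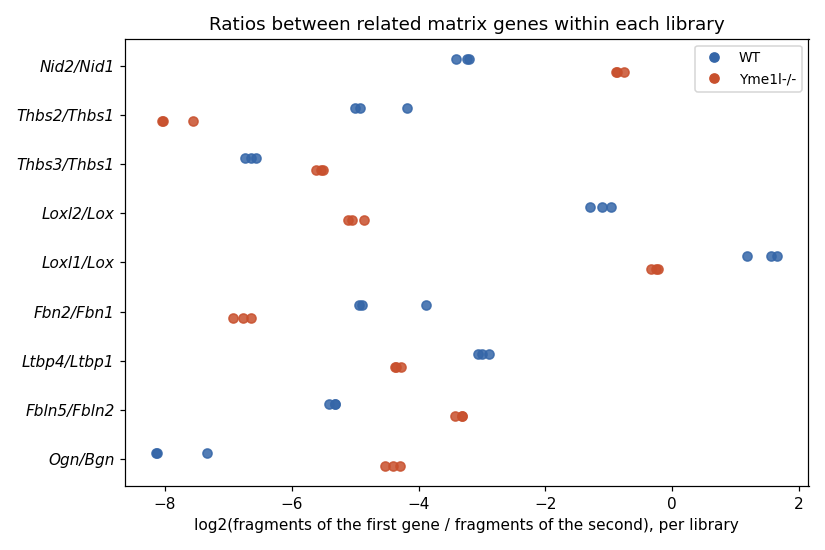
Log2 of the fragments of 1 gene over those of a related gene in the same library, for 9 pairs, with WT in blue and Yme1l-/- in orange-red and 1 point per culture. In none of the 9 pairs do the genotypes overlap. The pairs were chosen after values were seen, so this lack of overlap is no test. With 3 cultures against 3 the smallest p an exact permutation test allows is 0.1.

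The order of the members by level was read from FPKM, fragments corrected for transcript length and for library size, of which the authors give 1 combined value per genotype. In WT the highest were Bgn at 995 FPKM, Fbln2 at 779, Fn1 at 640.3, Sparc at 495, Spp1 at 268 and Thbs1 at 264 FPKM. In Yme1l-/- Sparc came first at 799 FPKM, followed by Bgn at 393, Fbln2 at 361, Fn1 at 316 and Thbs1 at 210.1 FPKM. Spp1 moved from rank 5 to 13 and Tnc from 10 to 20, while Nid2 moved from 28 to 12 and Fbln5 from 15 to 8. Combined values carry no spread between cultures, so neighbours in this order were not tested against each other.

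**Figure D4:**
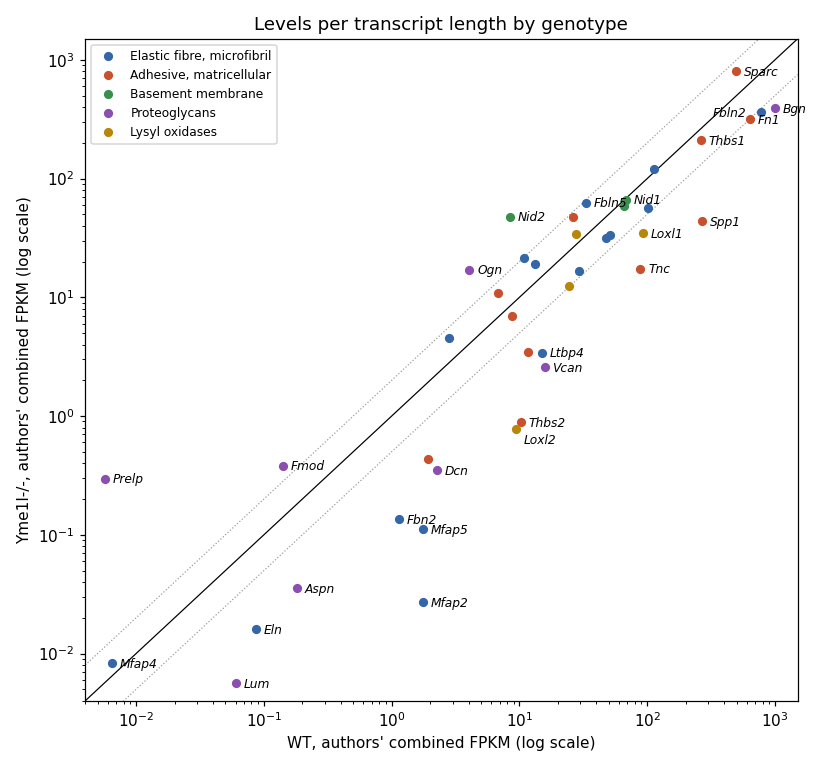
The authors' combined FPKM of each member in Yme1l-/- against WT, both on log scales, coloured by role, with a solid line at equality and dotted lines at 2-fold. Sparc is the highest point in Yme1l-/- at 799 FPKM, Nid2 and Ogn lie above the upper dotted line, and Loxl2, Thbs2, Vcan, Tnc and Spp1 lie below the lower one.

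Chromosomes differed in the median log2 fold change of their tested loci, from -0.44 on chromosome 12 to 0.59 on chromosome 15. With each chromosome's median removed, 24 members were called lower and 12 higher, with a median of -0.88, and 62.8% of all loci were called, 49.5% of these calls higher. The change of Fbln1 on chromosome 15 was then 0.34 instead of 0.94, that of Matn2 on the same chromosome -0.97 instead of -0.38, and that of Sparc on chromosome 11 was 0.33 instead of 0.68. Efemp2 came to 0.0035 and was no longer called, and Nid1 was called lower (-0.13, adjusted p = 0.0283). Of the 36 called members 20 moved against the sign of their chromosome's median. The part of these chromosome-wide values in single results was not tested otherwise.

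The 6 members that were high in WT replicate 2 also showed what that library does to the genotype comparison. Without it 63.5% of all loci tested were called, 49.8% of these higher. Of the members 35 were called, 23 lower and 12 higher, and 17 rather than 15 fell at least 2-fold, with a median of -0.73. Upward, Fbln1 then also passed 2-fold, at a log2 fold change of 1.01. Fbn2, Mfap5, Tgfbi, Thbs2 and Dcn stayed lower and Ogn stayed higher in Yme1l-/- cells.

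**Figure D5:**
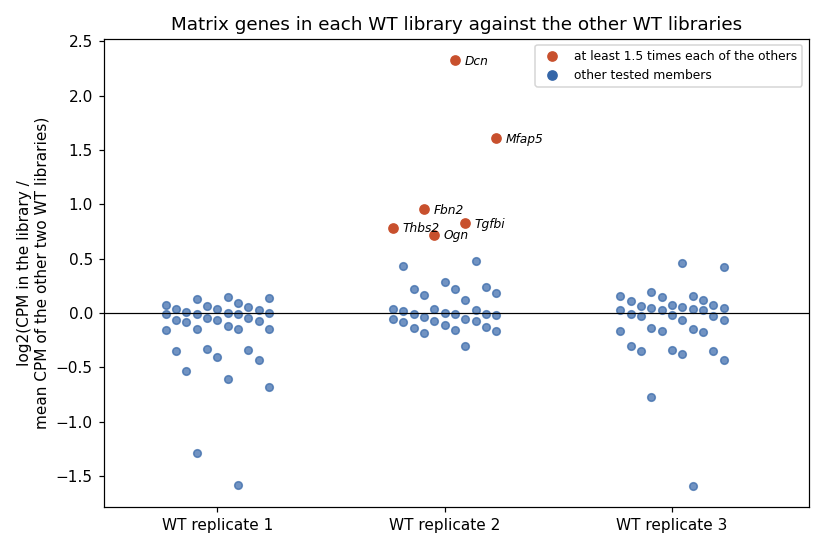
CPM of each tested member except Prelp in 1 WT library over the mean of the remaining WT libraries, as log2, with 1 column per WT library. Members at least 1.5 times each of the remaining WT libraries are orange-red, and all 6 of them sit in the column of WT replicate 2.

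Matrix glycoproteins, proteoglycans and assembly factors outside the list were read for comparison, 60 genes of which 33 could be tested. Of these 12 were called higher, 12 lower and 9 not called, with a median log2 fold change of -0.02, beside 33.6% higher and 34.1% lower over all loci. Of the lower calls 5 (Acan, Smoc1, Spock3, Dpt and Igfbp7) passed the count filter through WT alone, and of the higher calls 1 (Matn3) through Yme1l-/- alone, so that these had to differ. Among those called with at least 10 CPM in a genotype, the highest were Svep1, an adhesion protein (0.711 ± 0.221 against 22.1 ± 1.79 CPM, 4.95 ± 0.16), Hapln4, a hyaluronan link protein (0.568 ± 0.0835 against 13.3 ± 0.639 CPM, 4.54 ± 0.13), and Abi3bp (2.86 ± 0.211 against 34.8 ± 3.81 CPM, 3.60 ± 0.10). With the same minimum the lowest were Acan, Smoc2 and Mgp. Acan (aggrecan, a relative of versican) had 505, 470 and 449 counts in WT and 0 in every Yme1l-/- library, at least 169-fold lower. Smoc2, a relative of SPARC, went from 188 ± 10.6 to 0.473 ± 0.0894 CPM (-8.65 ± 0.10). Mgp, an inhibitor of calcification, read 15.3, 40.3 and 15.7 CPM in WT and 5.91, 4.58 and 4.24 CPM in Yme1l-/-, with WT replicate 2 again the highest. The log2 fold change of Mgp was -2.29 ± 0.52 (adjusted p = 0.0159) and -1.67 without that library, and the call was lost when any 1 Yme1l-/- library was left out (adjusted p of 0.0535 to 0.0667).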

How the data were processed

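Poly(A) RNA of 3 WT and 3 Yme1l-/- MEF cultures was sequenced by the authors as stranded paired-end libraries with 100-nt reads. They mapped reads with HISAT2 2.0.4 to GRCm38, assembled transcripts with StringTie 1.3.3 and compared genotypes with Cuffdiff 2.2.1, per the labels and the study's methods. How fragments that map to several places or strands were counted is not given in the sources used here. The deposited count table holds raw fragment counts per assembled locus. The deposited FPKM values are the authors' combined value per genotype. The authors' own fold changes, p-values and q-values were not used.

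The fit across all loci used edgeR 4.0.16 under R 4.3.3 (filterByExpr, minimum count 10, 13867 loci kept, TMM scaling, robust glmQLFit, two-sided glmQLFTest, no covariates) and Benjamini-Hochberg adjustment over all loci tested. A call is an adjusted p under 0.05. Levels are CPM per library or as mean ± SD (n = 3). Log2 fold changes are Yme1l-/- over WT, with their SE in the main comparison. Where every library of a genotype had 3 counts or fewer, folds are lower bounds against 3 counts. Libraries held 33180867 to 49351107 fragments, and bounds cover counting error only. The fit was run on simulated counts with 200 loci changed. Far more loci were called in these data, so that run does not test error control in this setting. Replicates differed by more than sampling noise (chi-square per degree of freedom 7.91 to 35.2), and all 6 were kept.

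The members and the lists of other matrix genes and markers were chosen with earlier results of these data known. All members are accounted for. Values are given for every library where a member was called at 2-fold or more with at least 10 CPM, or had at least 100 CPM. Of the other matrix genes, the 3 highest and 3 lowest called log2 fold changes with at least 10 CPM were named. Omd, and the genes named for how they passed the count filter, were named after their values were seen. Per-library values of further members, and the pairs of genes compared as ratios, were chosen after values were seen. Gene coordinates were taken from GENCODE annotation of GRCm38 by Ensembl identifier. Promoters are from RefSeq.

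Alternatives were RLE and upper-quartile scaling, DESeq2 1.42.0, other count filters, the replicate number as a block, each library left out, chromosome medians removed, and members at merged loci left out of the counts.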

Additional observations from a re-analysis of the deposited data

How the results depend on the processing

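Of 491 values of single members under alternative settings, 477 kept their call and direction, 12 lost the call, 1 gained it and 1 changed sign, and 34 of 38 tested members kept theirs in every setting. The exceptions were Efemp2, Dcn, Lox and Nid1, whose log2 fold change was 0.00704 with upper-quartile scaling. The median member log2 fold change was -0.70, and -0.82 with no filter beyond a total of 1 count, -0.59 with at least 10 counts in every sample and -0.88 with chromosome medians removed. With at least 10 counts in every sample, 6 other matrix genes were called lower and 10 higher, where 68.3% of all loci were called. Genes with fewer than 10 counts in a library, Acan among them, left the test. Leaving out each library in turn gave 34 to 36 members called and a median of -0.74 to -0.65, while 62.8% to 66.7% of all loci were called. Upper-quartile scaling moved the median of all loci to 0.0552 and the share of calls that were higher from 49.6% to 55.1%, with 13 members higher and 23 lower as before. Leaving members at merged loci out of the counts removed none, since no member lies in one.

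The replicate numbers gave no clear sign of pairing between the cultures. Deviations from the group means of the cultures numbered 1, 2 and 3 correlated at 0.20, -0.16 and 0.05 across loci. With the replicate block 9794 loci (70.6%) were called, against 9387 (67.7%) in the main fit. Of the members 35 were called there (22 lower, 13 higher), and the calls of Dcn (adjusted p = 0.0892) and Mgp (adjusted p = 0.064) were lost. Eln, Mfap4, Lum and Aspn, with at most 29 counts in any library, were tested only with no filter beyond a total of 1 count, where 25 members were called lower and 12 higher and 43.6% of all loci were called. Eln (adjusted p = 0.00133), Lum (adjusted p = 0.0139) and Aspn (adjusted p = 0.00391) were called lower there, and Mfap4 (adjusted p = 0.877) was not called.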
